A study of Mus musculus with 72 samples.

Results

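Inverted junctions near a bait double-strand break (DSB) are the subject here. In LAM-HTGTS, a translocation sequencing method that copies DNA linearly from a single primer, Cas9 cuts 1 chosen site, the bait DSB, and reads that start in the DNA on one side of this cut show to which other DNA, the prey, the broken end was joined. A junction was taken as inverted when its prey lay on the bait chromosome, was read on the strand opposite to the bait and started between 10 bp before and 10 kb past the cut. The members were thus chosen by the measured strand and position of each prey, and these selected 25921 of 591366 junctions on chromosomes 1 to 19, X and Y, or 4.38%. They came from all 60 LAM-HTGTS libraries of the series, and 251249 junctions of the same window ran on the bait's own strand.

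The bait DSB was placed on chromosome 6, 8, 12 or 14 of mouse neural progenitor cells after nucleofection of a plasmid for SpCas9 and a guide RNA. Of the libraries, 45 were from ES cell-derived neural progenitors of the line Nxp010 (NestinCre+Xrcc4-/-p53-/-), in which a Cre driven by the neural progenitor promoter Nestin accompanies the loss of the end-joining factor Xrcc4 and of p53. They had received the solvent DMSO (18 libraries, with baits on all 4 chromosomes), ART558 (9 libraries), aphidicolin (Aph, 9 libraries) or Aph plus ART558 (9 libraries), and ART558 was given only with the baits on chromosomes 6, 8 and 12. The other 15 libraries were from primary wild-type neural stem/progenitor cells (NSPCs), grown from brains of C57BL/6J embryos and given Aph (7 libraries) or Aph plus ART558 (8 libraries), with baits on chromosomes 6 and 14. Aph was used at 0.5 µM for 72 h and then 0.25 µM for 24 h, and ART558 at 5 µM for 72 h and then 2.5 µM for 24 h. All deficient libraries came from 1 line, the wild-type groups had no DMSO arm, and the labels do not say whether libraries of a group came from separate cultures or animals. The study's reporting summary calls the repeats of deficient cells technical and those of wild-type cells biological, while figure legends call replicates biological, so that p-values are taken here to measure only the spread between libraries, which may be technical.

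Broken ends are mostly sealed by non-homologous end joining, for which Xrcc4 supports DNA ligase IV. Without it, joining falls to slower pathways. Polymerase theta (Pol θ) anneals short identical stretches on resected ends, called micro-homology, and extends them. ART558 inhibits its DNA synthesis, and Aph slows replicative DNA polymerases. A bait end that is joined further along its own strand has simply lost the DNA in between, whereas an inverted junction continues in reverse. Where its prey starts well past the cut, the read turns back towards the cut, and where its prey starts at the cut, the read runs back over the bait side. A prey start well past the cut means that the prey DNA was broken or copied at another place, and the orientation does not tell whether the prey came from the same copy of the chromosome.

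The 4 cuts are shown because every distance below is counted from them. Each line runs 5′ to 3′ in the direction of the bait read, from GRCm38 (mm10), the capitals are the guide target with its PAM, and the cut lies 3 bases inside the target from the PAM. The chromosome 6 window is chr6:70950049-70950168 on the minus strand, the chromosome 8 window chr8:59477644-59477763, the chromosome 12 window chr12:12993995-12994114 and the chromosome 14 window chr14:83268787-83268906, all on the plus strand. The chromosome 8 target is on the strand opposite to the bait read, so that its PAM comes first.
chr6 bait: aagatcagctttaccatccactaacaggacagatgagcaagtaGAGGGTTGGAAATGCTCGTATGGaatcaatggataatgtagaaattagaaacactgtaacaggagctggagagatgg
chr8 bait: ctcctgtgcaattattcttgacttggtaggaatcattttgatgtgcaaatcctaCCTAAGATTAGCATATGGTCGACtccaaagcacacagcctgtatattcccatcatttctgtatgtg
chr12 bait: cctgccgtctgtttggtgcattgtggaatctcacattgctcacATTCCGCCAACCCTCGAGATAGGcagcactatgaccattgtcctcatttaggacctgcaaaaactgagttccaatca
chr14 bait: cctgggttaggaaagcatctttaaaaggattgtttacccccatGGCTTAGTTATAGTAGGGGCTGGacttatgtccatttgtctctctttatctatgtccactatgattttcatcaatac

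The cut positions are 70950108 on chromosome 6, 59477703 on chromosome 8, 12994054 on chromosome 12 and 83268846 on chromosome 14. The chromosome 12 cut falls in an exon of Gm35208, a long intergenic non-coding RNA at chr12:12987317-12994199. Within 10 kb of the other cuts the annotation held only Foxi3, a forkhead transcription factor gene whose nearest base is 6423 bp from the chromosome 6 cut on the bait side. The chromosome 8 and 14 cuts had no annotated gene within 10 kb.

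The lower edge of the window cut through a large population. From 20 to 11 bp before the cut, 1227 junctions lay on the opposite strand, and from 10 to 1 bp before it 3190 did. The next 10 bp, from 0 to 9, held 396 and the bases 10 to 19 only 18, after which the numbers rose again, to 49 at 20 to 29 bp and 263 at 30 to 39 bp. At the upper edge 71 inverted junctions lay between 9 and 10 kb and 34 between 10 and 11 kb. No prey alignment was shorter than 25 bases, and a prey that starts closer to the cut than that has to cross it.

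For description the inverted junctions were therefore divided at 20 bp, a limit chosen after the data were seen. The 3604 junctions at the cut (from 10 bp before it to 19 bp past it) have preys that are read away from the cut over the bait side. Of these preys, 1781 ended within 10 bp of the bait end. Another 957 stopped short of it, in bases that the bait part of the read lacked, and 866 went further. The 22317 junctions past the cut (20 bp to 10 kb) have preys that are read back to it. The first class continued without a break into the opposite-strand junctions on the bait side, of which 72232 lay between 10 kb and 11 bp before the cut and were not selected.

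Counts are given by bait over all genotypes and drugs. The chromosome 6 bait gave 12770 inverted junctions of 278415 (4.59%, 23 libraries), chromosome 8 gave 3628 of 84333 (4.30%, 12 libraries), chromosome 12 gave 6266 of 137181 (4.57%, 10 libraries) and chromosome 14 gave 3257 of 91437 (3.56%, 15 libraries). These shares pool libraries in different mixes: 8 of the 15 chromosome 14 libraries were wild-type, and in DMSO alone the mean share was 5.28% at chromosome 14 (n = 4) and 5.15% at chromosome 6 (n = 2). Junctions at the cut made up 1122 of the chromosome 14 junctions but 1069 of the far more numerous chromosome 6 ones. Libraries held 133 to 36999 junctions (median 7737). The 3 with fewer than 1000 were described but not tested: replicate 3 of ART558 with the chromosome 8 bait, replicate 1 of Aph plus ART558 with that bait, and replicate 2 of wild-type Aph with the chromosome 6 bait. Shares of single libraries are given with Wilson 95% intervals in the plot, which cover counting error only, since reads carried no molecular identifiers. Read names placed the libraries on 11 sequencing runs, and all wild-type libraries shared a run that held no deficient library.

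Inverted junctions were a far smaller share of junctions in Xrcc4/p53-deficient cells given ART558, at each of the 3 baits tested. With the chromosome 6 bait they made up 5.42% and 4.88% of all junctions in the 2 DMSO libraries collected alongside, and 0.924%, 0.234% and 0.672% with ART558. With the chromosome 8 bait the DMSO libraries gave 6.17%, 6.41% and 6.42%, and the ART558 libraries 0.549% and 0.284%. With the chromosome 12 bait the values were 7.75% and 8.79% against 0.518%, 0.588% and 0.556%.

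No ART558 library reached a DMSO library at any of these baits. Averaged over baits, the share was 0.527% with ART558 (n = 8) and 6.58% with DMSO (n = 7), a 12.5-fold difference (exact permutation test within baits, two-sided, p = 0.001, adjusted p = 0.00381 over 6 comparisons). Within the sequencing runs that held both groups (chromosomes 6 and 12) the difference was -6.13 percentage points (exact permutation test, adjusted p = 0.02). The one ART558 library outside this range was the shallow replicate 3 of chromosome 8, in which 6 of 133 junctions were inverted (4.51%). All 6 had their prey at the same position, 4 bp before the cut. The 7 DMSO libraries of another collection with the chromosome 6 bait gave 5.16% to 6.88%, with a median of 5.86%.

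The same was seen under replication stress. With Aph, the inverted share was 2.91% in the single chromosome 6 library, while libraries of the chromosome 8 bait gave 5.10%, 4.65% and 4.54%. For chromosome 12 the values were 4.37% and 4.71%. With Aph plus ART558 it was 0.662%, 0.550% and 0.510% (chromosome 6), 0.611% and 0.313% (chromosome 8), and 0.488%, 1.01% and 0.522% (chromosome 12). The groups did not overlap at any bait, and the means of 0.570% (n = 8) and 4.07% (n = 6) differed 7.14-fold (exact permutation test, p = 0.0025, adjusted p = 0.005). Within a sequencing run only the chromosome 6 libraries could be compared, with a difference of -2.34 percentage points and 1 Aph library, where the exact permutation test cannot go below p = 0.25.

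The inverted share was moderately lower with Aph alone, from 6.26% (n = 11) to 4.26% (n = 9) over 4 baits (exact permutation test, p = 0.00127, adjusted p = 0.00381). The groups were apart at chromosomes 6, 8 and 12 and overlapped at chromosome 14, where Aph libraries gave 4.77%, 5.29% and 4.37% and DMSO libraries 5.84%, 3.51%, 5.94% and 5.82%. The lowest of these DMSO libraries was also the shallowest of the group, with 1139 junctions. The difference between libraries with and without ART558 was larger in the absence of Aph, with a difference of differences of -2.56 percentage points (exact permutation test, p = 0.000938, adjusted p = 0.00563 over 6 tests). The test exchanged labels of libraries with and without Aph. With ART558 the mean shares were 0.527% without Aph and 0.570% with it, against 6.58% and 4.07% without ART558 at the same 3 baits. The value thus largely restates the difference between DMSO and Aph. For the inverted part of both orientations the same test gave no call (-1.86 percentage points, exact permutation test, adjusted p = 0.21), nor from 200 bp to 10 kb (-0.0173, exact permutation test, adjusted p = 0.99).

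**Figure D1:**
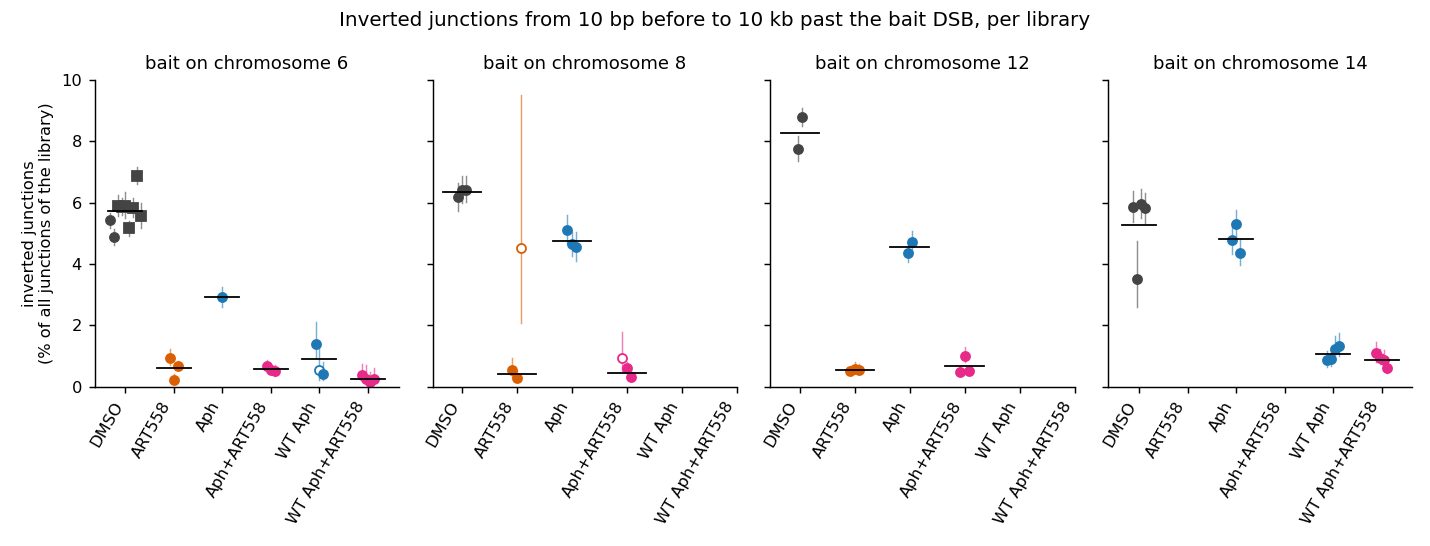
Inverted junctions as a percent of all junctions (vertical axis) in each library, by treatment (horizontal axis) and bait (panels). Points are libraries with 95% Wilson intervals, squares mark the other DMSO collection, open points have fewer than 1000 junctions, lines are means of the deeper libraries. ART558 libraries of deficient cells with at least 1000 junctions lie at or below 1.01%, and DMSO libraries at or above 3.51%.

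Same-strand junctions also changed with ART558, downwards beyond 200 bp and, without Aph, upwards within 100 bp of the cut, so the 2 orientations were compared with each other. Of all junctions from 10 bp before to 10 kb past the cut, 9.79% were inverted with DMSO and 1.56% with ART558 (exact permutation test, adjusted p = 0.005), and 10.6% with Aph and 4.22% with Aph plus ART558 (exact permutation test, adjusted p = 0.005). From 200 bp to 10 kb the inverted part was 8.47% with DMSO and 1.14% with ART558 (exact permutation test, adjusted p = 0.003). Under Aph it was 10.6%, and with both drugs 3.33% (exact permutation test, adjusted p = 0.005). Junctions of the inverted orientation were thus reduced more than those of the direct one in both settings.

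The sizes of the changes differed with distance. From 200 bp to 10 kb, inverted junctions fell from 4.41% to 0.158% of all junctions with ART558, or 27.9-fold, and same-strand junctions from 48.1% to 12.8%, or 3.76-fold. Under Aph the folds were 20.6 (2.89% to 0.141%) and 5.05 (25.2% to 4.99%). At the cut, where the prey runs over the bait side, inverted junctions differed less. They made up 0.705% with DMSO and 0.245% with ART558, or 2.87-fold, while same-strand junctions in that bin were 4.36% and 8.22%. Same-strand junctions were also more frequent with ART558 at 20 to 50 bp (2.18% and 7.69%) and at 50 to 100 bp (2.35% and 3.50%). Under Aph they were more frequent at the cut (3.67% and 4.21%) and at 20 to 50 bp (2.26% and 3.66%) but not at 50 to 100 bp (1.501% and 1.172%). On the bait side proper, 10 kb to 11 bp before the cut, the mean opposite-strand share was not lower with ART558: it was 8.78% with DMSO and 13.3% with ART558 for the chromosome 12 bait, 9.80% and 14.7% for chromosome 8, and 11.3% and 13.1% for chromosome 6. At chromosome 6 the ART558 libraries were spread from 5.68% to 17.3%, around the DMSO libraries at 10.5% and 12.1%.

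Aph moved the balance of orientations the other way. The inverted part of both orientations was 9.07% with DMSO and 10.4% with Aph (exact permutation test, adjusted p = 0.005), and from 200 bp to 10 kb it was 7.46% and 10.1% (exact permutation test, adjusted p = 0.00095). Over the wider window the difference of 1.32 percentage points was 1.20 with each pair of prey position and bait end counted a single time (exact permutation test, adjusted p = 0.00857), but -2.25, with no call, when each prey position was counted a single time (exact permutation test, adjusted p = 0.119). The call was also lost with both chromosome 6 DMSO collections, at 0.968 percentage points (exact permutation test, adjusted p = 0.0776), and with an upper limit of 2 kb, at 0.70 (exact permutation test, adjusted p = 0.121).

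Wild-type NSPCs had few inverted junctions, 402 in 15 libraries. With the chromosome 14 bait and Aph, 4 wild-type libraries gave 0.864%, 0.909%, 1.22% and 1.32%. The 3 deficient libraries of that bait and drug, given above, were all higher, and the means of 1.08% and 4.81% differed 4.47-fold (exact permutation test, p = 0.0286, the smallest it allows with 4 against 3). With the chromosome 6 bait and both drugs, wild-type libraries gave 0.393%, 0.240%, 0.163% and 0.260%, all below the deficient ones (0.264% against 0.574%, exact permutation test, p = 0.0286). At chromosome 14 most of the gap lay past the cut, where the shares were 0.504% and 3.36%, while at the cut they were 0.573% and 1.46%. Of both orientations, 6.16% were inverted in wild-type and 9.80% in deficient cells (exact permutation test, adjusted p = 0.0343), a call lost with each prey position counted a single time (-5.42 percentage points, exact permutation test, adjusted p = 0.0571) and with a start at 20, 50 or 200 bp (-3.46, -2.79 and -2.22, exact permutation tests, adjusted p = 0.0686, 0.171 and 0.286). At chromosome 6, with both drugs, 1.92% and 2.94% gave no call (exact permutation test, adjusted p = 0.0857), and from 200 bp on the difference had the other sign, 3.44 percentage points (exact permutation test, adjusted p = 0.171). The titles name a theta collection for the wild-type libraries and for none of the deficient chromosome 14 libraries. Genotype, cell source, sequencing run and, at chromosome 14, collection differ together here and cannot be told apart. The chromosome 6 difference in share was -0.192 percentage points with each prey position counted a single time, with no call (exact permutation test, adjusted p = 0.137). It also lost its call with a start at 20 or 50 bp (-0.174 and -0.137, exact permutation tests, adjusted p = 0.0571 and 0.0857). Without the most repeated position it was -0.232 (exact permutation test, adjusted p = 0.0571).

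In wild-type cells the difference in share with ART558 rested on few junctions. With Aph plus ART558 the chromosome 14 libraries gave 1.08%, 0.947%, 0.875% and 0.604%, which overlaps the Aph libraries. Over both baits the means were 0.571% (n = 8) and 0.989% (n = 6) (exact permutation test, adjusted p = 0.0257). That call rested on replicate 1 of Aph with the chromosome 6 bait, at 1.39%. Of its 22 inverted junctions 11 had their prey 5019 bp past the cut and 7 had it 86 bp past. Without this library the difference was -0.172 percentage points (exact permutation test, adjusted p = 0.0886), and with each prey position counted a single time it was -0.0514 (exact permutation test, adjusted p = 0.576). Replicate 3 of that group is similar, as its 8 inverted junctions all had 1 prey position, 233 bp past the cut. Of both orientations, 8.58% were inverted with Aph and 3.47% with both drugs (exact permutation test, adjusted p = 0.00857), mostly from chromosome 6 (10.99% and 1.92%). This call was kept with each of 14 libraries left out, over differences from -7.88 (without replicate 3 of Aph at chromosome 6) to -2.33 (without replicate 1), and was lost with each prey position counted a single time (-0.960 percentage points, exact permutation test, adjusted p = 0.5257) and from 200 bp on (-12.5, exact permutation test, adjusted p = 0.0729). Whether the effect of ART558 under Aph differs between genotypes was tested at chromosome 6 and gave no call (difference of differences 1.70 percentage points, exact permutation test, p = 0.533).

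The distance from the cut was broad in DMSO. With baits on chromosomes 6, 8 and 12 the 7 DMSO libraries had on average 1.20% of their junctions in inverted orientation at 200 to 500 bp, 1.14% at 500 bp to 1 kb, 1.10% at 1 to 2 kb, 0.735% at 2 to 5 kb and 0.167% at 5 to 10 kb. Nearer to the cut, bins of 50 to 100 bp and 100 to 200 bp held 0.503% and 0.809%. With ART558 none of these bins held more than 0.0749% on average. Among junctions pooled over libraries, the inverted part of both orientations was highest between 50 and 200 bp in DMSO, at 17.3% and 17.4% in those bins, and went down to 6.69% at 2 to 5 kb.

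What remained after ART558 lay close to the cut. Among libraries with at least 20 inverted junctions, the share under 200 bp was 26.3% and 27.6% (chromosome 6) and 34.3% and 31.1% (chromosome 12) with DMSO. With ART558 it was 52.2% and 71.2% (chromosome 6) and 94.00%, 78.57% and 91.84% (chromosome 12). The means of 74.9% (n = 5) and 29.8% (n = 4) did not overlap between groups (exact permutation test, p = 0.0167, the smallest it allows, adjusted p = 0.0278). With Aph plus ART558 the share was 75.4% (n = 8) and with Aph 28.3% (n = 6) (exact permutation test, adjusted p = 0.00625). The median distance, here and below the mean of library medians averaged over baits, was 35.5 bp with ART558 and 536 bp with DMSO, and 52.5 bp and 687 bp in the presence of Aph. Library medians with ART558 were 110.5 and 38 bp at chromosome 6, and -5, -2 and -3 bp at chromosome 12. With DMSO they were 585.5 and 569.5 bp, and 447 and 540 bp. Without Aph the calls for share and median distance were lost whichever library was left out (exact permutation tests, adjusted p from 0.0556 to 0.0714). With 1 library fewer the smallest p the test allows is higher, and the differences stayed at 40.4 to 49.9 percentage points and -523 to -477 bp. Under Aph only chromosome 6 libraries shared a run, 3 against 1, where the exact permutation test cannot go below p = 0.25, so that no distance, micro-homology, insertion or bait-end call between these groups could be had within a run.

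The mix of the 2 classes moved with the distance. Past the cut lay 18303 of 20598 inverted junctions in DMSO libraries (88.9%), but 134 of 299 with ART558 (44.8%) and 197 of 385 with both drugs (51.2%). These shares pool baits in different mixes, and DMSO includes both collections. By bait, DMSO and ART558 gave 11197 of 12140 and 83 of 130 (chromosome 6) and 1992 of 2251 and 15 of 28 (chromosome 8). At chromosome 12 they gave 4045 of 4585 and 36 of 141. Among junctions past the cut alone, the share under 200 bp was 21.1% with DMSO and 43.2% with ART558 (n = 2 each, chromosome 6 only). It was 18.3% with Aph and 52.4% with both drugs (n = 6 each, 3 baits). Their median distances were 650 and 398 bp, and 922 and 282 bp. In replicate 1 of ART558 with the chromosome 6 bait, 15 of the 36 junctions past the cut lay at 1 position, 541 bp from it. These values are a description, without a test, since the division at 20 bp was made after the data were seen. In wild-type cells 112 of 201 lay past the cut with Aph (55.7%) and 107 of 201 with Aph plus ART558 (53.2%). Distances were longer with Aph alone in deficient cells: the median was 599 bp (n = 9) against 391 bp in DMSO (n = 11) (exact permutation test, adjusted p = 0.000794), and 32.0% against 39.7% lay under 200 bp (exact permutation test, adjusted p = 0.00625).

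**Figure D2:**
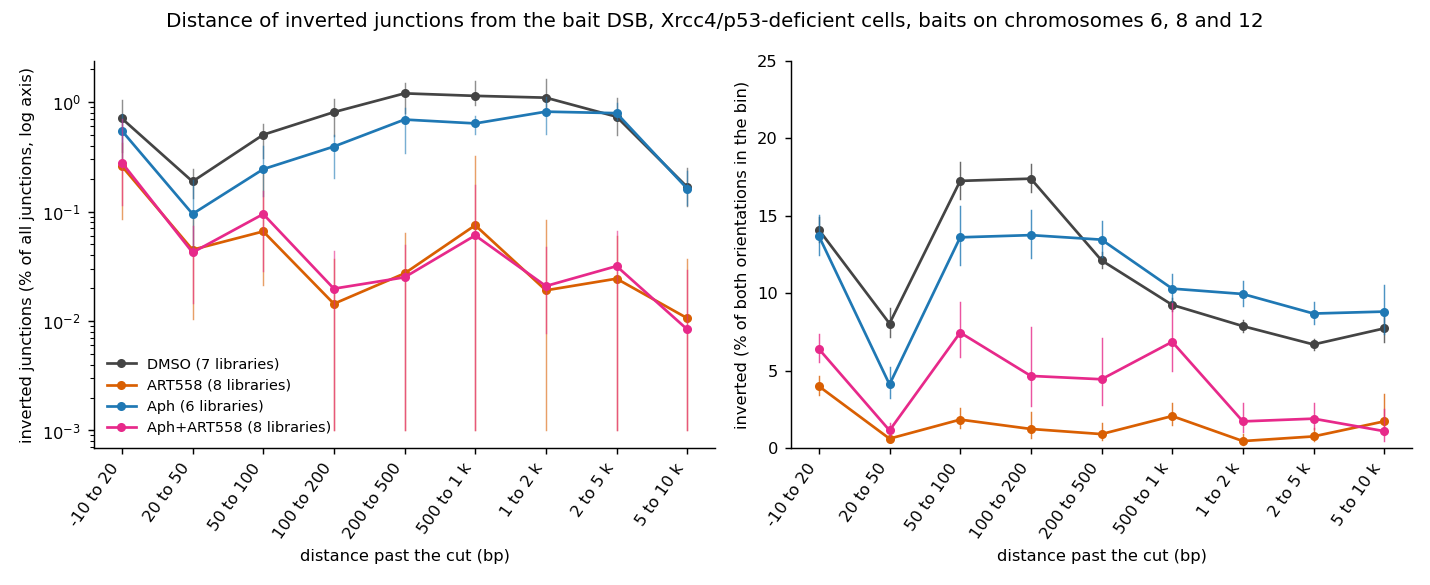
Distance past the cut (bp, horizontal axis) of inverted junctions in deficient cells with baits on chromosomes 6, 8 and 12. Left: percent of all junctions on a log axis, means over libraries with lines from the lowest to the highest library (a library with none is drawn at 0.001%). Right: inverted junctions as a percent of both orientations, pooled, with 95% Wilson intervals. The ART558 curves and Aph plus ART558 curves lie below the DMSO and Aph curves in every bin of both panels.

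Micro-homology was counted as the bases that bait and prey share at the junction. A value of 0 bp is direct joining, and a read with extra bases between bait and prey has an insertion. Junctions past the cut used more of it than those at the cut. Of 17311 junctions past the cut with 0 to 10 bp, 9.09% were joined directly, 15.9% had 1 bp, 64.4% had 2 to 4 bp and 10.6% had 5 bp or more. At the cut the shares of 2140 junctions were 19.3%, 23.2%, 51.2% and 6.36%. These 2 classes were formed after the data were seen and are described without a test.

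Inverted junctions were then set against other junctions of the same libraries, at 200 bp to 10 kb. This used 28 libraries with at least 20 junctions of each kind, of which 17 had DMSO, 9 Aph and 2 ART558, all deficient. Direct joining made up 8.58% of inverted and 11.9% of same-strand junctions, and was lower in 26 of 28 libraries (sign-flip permutation test with 100000 resamples, adjusted p = 0.00307). Micro-homology of 5 bp or more made up 13.9% and 7.65%, and was higher in 27 of 28 libraries (permutation test, adjusted p = 2.5e-05, from the smallest p the resamples can give). Micro-homology of 2 to 4 bp differed in the same direction, 63.4% against 59.6%, in 21 of 28 libraries (permutation test, adjusted p = 0.0353).

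Against junctions on other chromosomes the contrast was larger. Direct joining there was 17.9%, so that inverted junctions differed by -9.29 percentage points, and micro-homology of 2 to 4 bp was 51.2%, or 12.2 points less (permutation tests, adjusted p = 2.5e-05 for each). Insertions were 5.35 points more frequent in inverted junctions (23.2% against 17.8%, permutation test, adjusted p = 0.00082), and from 1 to 10 kb past the cut the difference was 2.21 points in 26 libraries (permutation test, adjusted p = 0.0483). Against same-strand junctions the mean difference in insertions was 0.253 points, with the inverted value the lower one in 21 of 28 libraries (permutation test, adjusted p = 0.963). Micro-homology of 5 bp or more, at 13.9% and 14.6%, gave no call although the inverted value was the lower one in 24 of 28 libraries (permutation test, adjusted p = 0.985).

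**Figure D3:**
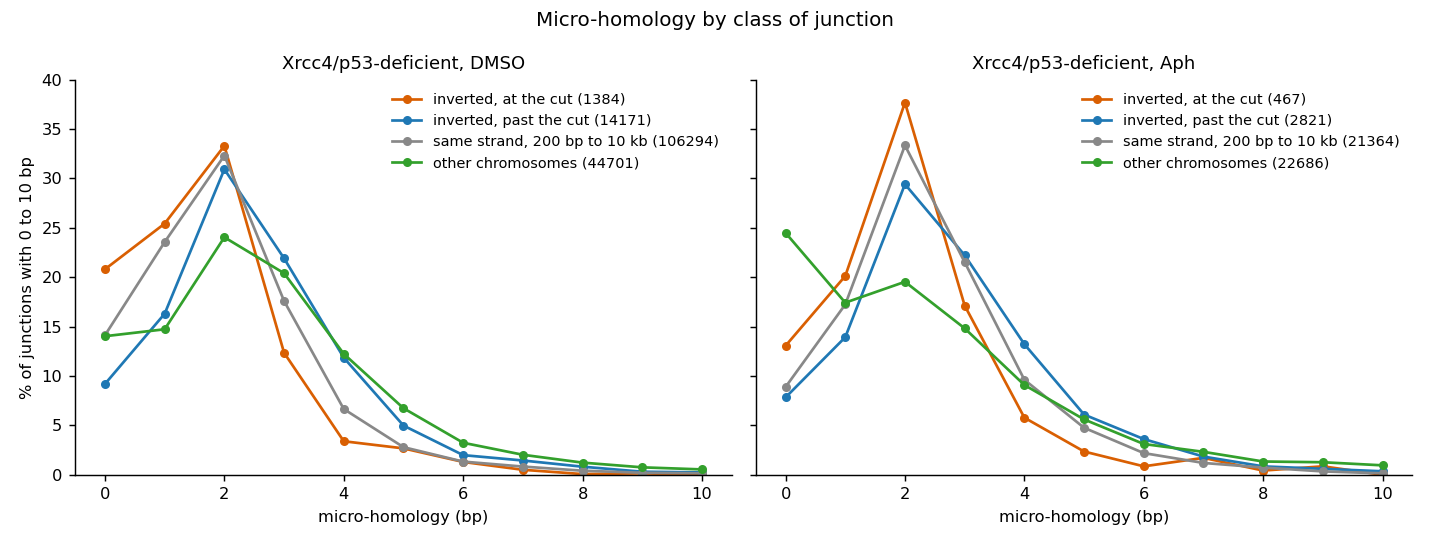
Micro-homology in bp (horizontal axis) as a percent of the junctions with 0 to 10 bp (vertical axis) in deficient cells with DMSO (left) or Aph (right), pooled over libraries, with the number of junctions of each class in the key. Inverted junctions past the cut have the lowest share at 0 bp in both panels.

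Inverted junctions of Aph libraries had more micro-homology. Direct joining was 11.2% with DMSO (n = 11) and 8.20% with Aph (n = 9) (exact permutation test, adjusted p = 0.00238), and 5 bp or more was 9.54% and 12.3% (exact permutation test, adjusted p = 0.000397). Insertions went from 27.7% to 21.9% (exact permutation test, adjusted p = 0.000794). These are small differences, and the ranges of the groups overlapped for all 3 measures, since direct joining ran from 5.51% to 12.2% in Aph libraries and from 6.97% to 12.8% in DMSO libraries of both collections.

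Under Aph, micro-homology of 2 to 4 bp was less frequent with ART558 and longer stretches were more frequent. There, 2 to 4 bp made up 64.8% of inverted junctions without ART558 (n = 6) and 43.6% with it (n = 8) (exact permutation test, adjusted p = 0.0123), and within the run of the chromosome 6 libraries the difference was -11.3 percentage points. Micro-homology of 5 bp or more made up 12.5% and 31.9% (exact permutation test, adjusted p = 0.00625). The latter call was lost without replicate 1 or replicate 2 of Aph with the chromosome 12 bait, where the difference was 18.9 and 19.9 percentage points (exact permutation tests, adjusted p = 0.0781 and 0.0625). Without Aph the same measures were 62.5% and 55.6%, and 9.08% and 23.4%, and neither passed the test (exact permutation tests, adjusted p = 0.417 and 0.583, n = 4 and 5). The few junctions are a limit, as the 5 ART558 libraries ranged from 6.90% to 50% at 5 bp or more. Direct joining was 10.8% with DMSO and 10.7% with ART558.

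Insertions were more frequent with ART558. The 4 DMSO libraries of chromosomes 6 and 12 had extra bases in 30.1%, 26.9%, 22.4% and 24.4% of inverted junctions, and the 5 ART558 libraries in 69.6%, 57.5%, 40%, 38.1% and 40.8%. The groups did not overlap, and the means were 26.0% and 51.6% (exact permutation test, p = 0.0167, adjusted p = 0.0278). Under Aph they were 19.6% (n = 6) and 51.7% with ART558 (n = 8) (exact permutation test, adjusted p = 0.00625). The call without Aph was lost whichever library was left out (exact permutation tests, adjusted p from 0.0556 to 0.0926). With 1 library fewer the smallest p the test allows is higher, and the difference stayed at 22.6 to 28.6 percentage points. Pooled over the baits, inserts of junctions past the cut had a median length of 3 bases with DMSO, 3 with Aph, 9 with ART558 and 9 with both drugs, given with no test. At chromosome 6 these medians were 4, 4, 10 and 8 bases, and at chromosome 12 they were 3, 3, 6 and 4.5 bases. A single chromosome 6 position, 541 bp past the cut, held 16 of the 69 inserts with ART558 and 14 of the 103 with both drugs. Without the most repeated position of each bait, a setting chosen after the data were seen, the pooled medians were 7 bases with ART558 and 10 with both drugs, and the differences in insertion frequency were 23.2 and 30.9 percentage points (exact permutation tests, adjusted p = 0.0278 and 0.00625). In wild-type cells with the chromosome 14 bait 38.6% had insertions with Aph and 27.7% with both drugs (exact permutation test, adjusted p = 0.343).

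In deficient cells the bait end was shorter where ART558 was present. Inverted junctions of the 4 DMSO libraries lacked on average 13.87, 14.96, 20.98 and 21.45 bases up to the cut, and those of the 5 ART558 libraries 27.0, 31.3, 56.2, 57.5 and 56.1 bases. The groups did not overlap, and the means were 17.8 and 42.9 bases (exact permutation test, p = 0.0167, adjusted p = 0.0278), and under Aph 20.04 and 41.95 bases (exact permutation test, adjusted p = 0.00625). Without Aph the call was lost when any of the 5 chromosome 12 libraries was left out, with a difference of 24.8 to 25.2 bases (exact permutation tests, adjusted p up to 0.0694), and under Aph the difference within the run of the chromosome 6 libraries was 12.9 bases. In wild-type cells with the chromosome 14 bait the mean was 65.0 bases with Aph and 57.6 with both drugs, a difference of -7.38 bases (exact permutation test, n = 4 and 4, adjusted p = 0.314). The class of junction enters this value, because bait ends at the cut lacked a median of 56 bases (quartiles 36 and 80) and those past the cut 11 bases (quartiles 4 and 20). The value counts bases absent from the bait part of the read. At the cut the prey can hold such bases in reverse: 49.4% of preys there ended within 10 bp of the bait end, and the median prey was 46 bases long. At the cut the value is therefore not a measure of lost DNA.

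Within the classes the difference was seen past the cut and hardly at it. Past the cut, bait ends lacked 12.5 bases with DMSO and 22.7 with ART558 (n = 2 each, chromosome 6 only). They lacked 15.6 with Aph (n = 6) and 32.0 with both drugs (n = 6). At the cut the values were 48.8 and 51.8 bases (n = 4 each, chromosomes 6 and 12), and 50.2 and 53.3 bases (n = 6 and 5). Without Aph the classes thus rest on different baits. Over both classes, with Aph and the chromosome 14 bait, the bait part of the read lacked 65.0 bases in wild-type cells and 43.4 in deficient cells (exact permutation test, p = 0.0286, adjusted p = 0.0357). The mix of classes differed there, with 53.4% and 30.4% of inverted junctions at the cut, and within the classes the values were 92.7 and 81.4 bases at the cut (n = 3 each) and 39.5 and 26.8 past it (n = 2 and 3). With Aph alone 2.78 more bases were missing in deficient cells, over both classes (exact permutation test, adjusted p = 0.00238). Compared with junctions on other chromosomes in the same libraries, inverted junctions past 200 bp kept 11.1 more bases of the bait (17.1 against 28.3 missing, permutation test, adjusted p = 2.5e-05), and they were close to same-strand junctions, which lacked 18.1 (permutation test, adjusted p = 0.0512).

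**Figure D4:**
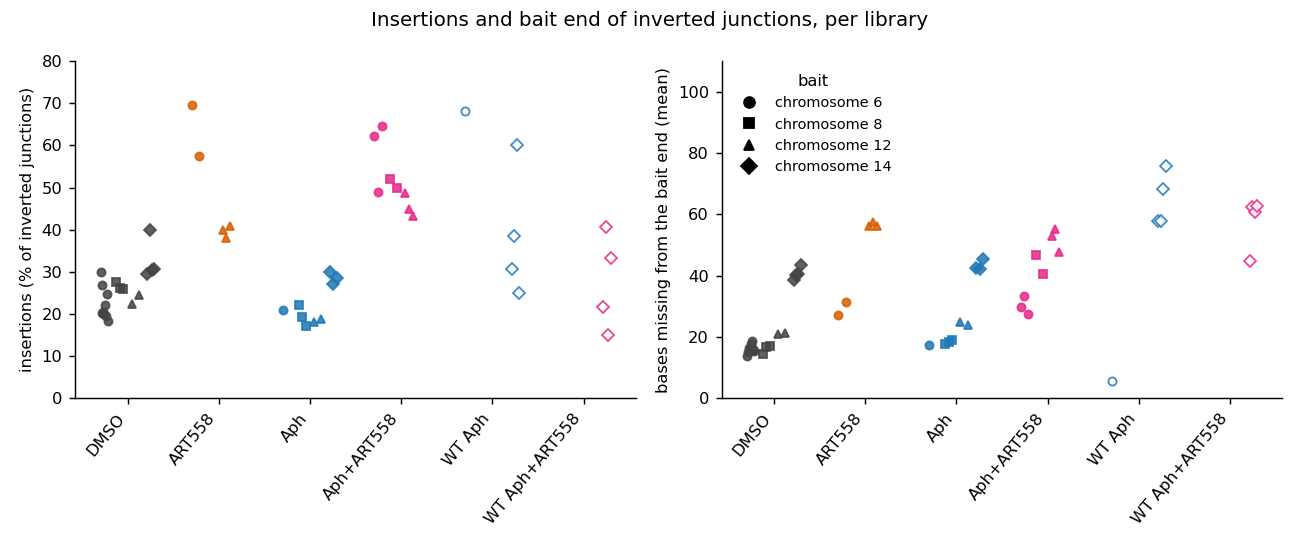
Insertions as a percent of inverted junctions (left) and mean number of bases missing from the bait end (right), per library with at least 20 inverted junctions, by treatment (horizontal axis). Symbols are baits and open symbols wild-type cells. Deficient libraries with ART558 lie above the other deficient libraries of the same bait in both panels.

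Where the prey of an inverted junction ends shows how far the reversed DNA reaches. Past the cut the prey is read towards the cut, and few preys went over it. Of 647 preys that started 20 to 49 bp past the cut, 502 (77.6%) ended within 10 bp of it and 22 (3.40%) went beyond. Of 1632 from 50 to 99 bp, 520 (31.9%) ended there and 8 went beyond, and of 2523 from 100 bp to just under 200 bp, 192 (7.61%) and 4. Within 3 bp of the cut ended 38.2%, 13.9% and 3.37% of these preys. No prey was shorter than 25 bases, so that those starting nearest to the cut could end only around it or beyond. From farther away reads are mostly too short to reach the cut, since the median prey was 60 bases long.

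At the cut the prey runs over the bait side, and 1781 of 3604 preys (49.4%) ended within 10 bp of the place where the bait itself ended, 957 stopped short of it and 866 went further. The share that ended at the bait end was 58.1% with the chromosome 6 bait and 36.9% with the chromosome 14 bait.

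**Figure D5:**
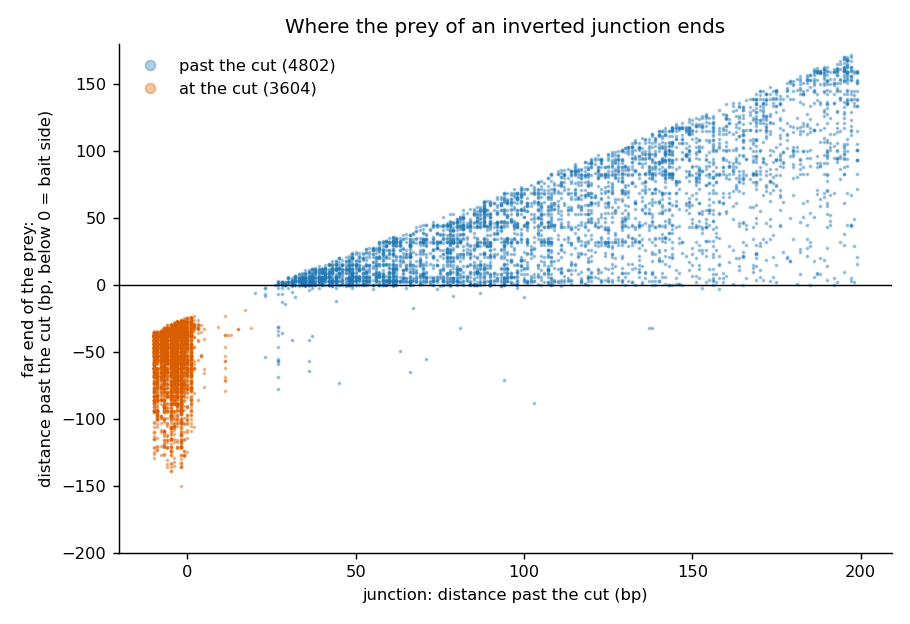
Far end of the prey against its start, both as distance past the cut in bp, for 8406 inverted junctions that start less than 200 bp past the cut. Preys past the cut (blue) pile up at a far end of 0 and rarely go below, and preys at the cut (orange) extend on the bait side. 64 points with far ends below -200 bp are not drawn.

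Reads that go on after the prey show what the reversed segment was joined to at the cut. Of the 1214 preys from 20 bp to just under 200 bp that ended at the cut, 895 were followed by at least 20 more bases. A 16-base match within 12 kb of the cut placed these bases on the bait's own strand directly after the reversed segment in 170 reads (18.99%). In 333 reads (37.2%) they lay farther along the same strand, a median of 930 bp from the prey start. Such a read does not tell a piece that was turned around from one that was copied. In 125 reads they lay nearer to the cut than the prey start, in 46 on the opposite strand and in 16 on the bait side, while 3 matched at several places and 202 at none.

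DMSO libraries gave 759 of the 895 reads. Among these, 443 (58.4%) continued on the same strand past the prey start, and with Aph 54 of 107 did (50.5%). With both drugs it was 3 of 21 (14.3%) and with ART558 2 of 5. Of junctions at the cut, 1435 reads went on after the prey, and 687 of these (47.9%) continued on the bait's own strand past the cut, while 442 were on the opposite strand. This matching was designed after the data were seen and is given as counts.

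Prey positions were spread widely and the most shared ones lay at the cut. The 25921 junctions used 8218 positions, and the share of positions seen a single time was 40.7% on chromosome 6, 57.7% on chromosome 8, 46.3% on chromosome 12 and 64.4% on chromosome 14. Of the 12 positions found in most libraries, 3 for each bait, 11 lay between 10 bp before the cut and the cut itself. On chromosome 14 the prey started 2 bp before the cut in all 15 libraries (267 junctions) and 5 bp before it in all 15 (188 junctions), and on chromosome 12 it started 10 bp before in all 10 (121 junctions). On chromosome 8 a start 4 bp before the cut was in all 12 libraries (55 junctions).

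The exception was on chromosome 6, 310 bp past the cut, in 17 of 23 libraries with 33 junctions. In 26 of them the bait lacked 1 base and shared 9 bp with the prey. It was found in 3 ART558, 3 Aph plus ART558 and 9 DMSO libraries, and in 1 library each of deficient and wild-type cells with Aph. The product is shown with those of the most shared position past the cut of each other bait. Capitals are the micro-homology, which belongs to bait and prey alike, and the bases after it are the reversed prey.
chr6 product, prey start 310 bp past the cut: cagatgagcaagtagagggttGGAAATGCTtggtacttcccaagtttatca
chr8 product, prey start 49 bp past the cut: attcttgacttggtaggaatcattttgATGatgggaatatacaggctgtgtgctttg
chr12 product, prey start 27 bp past the cut: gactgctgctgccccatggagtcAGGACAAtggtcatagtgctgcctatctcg
chr14 product, prey start 89 bp past the cut: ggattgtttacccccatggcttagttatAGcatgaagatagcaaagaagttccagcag

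The chromosome 12 product joined a bait end that lacked 63 bases through 7 bp, in 11 of 12 junctions and 9 of 10 libraries. The other 2 were used less uniformly. The chromosome 8 start at 49 bp had 10 junctions in 7 libraries, 3 of them as shown with 3 bp shared and 17 bases missing, and the chromosome 14 start at 89 bp had 16 in 7 libraries, 4 of them as shown with 2 bp shared and 4 bases missing.

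The position with most junctions past the cut was again on chromosome 6, 541 bp from it. It held 95 junctions in 14 libraries, with 34 different bait ends, and 86 of these had an insertion. Deficient libraries with ART558 gave 19 of them, Aph plus ART558 16, Aph 4 and the 2 DMSO collections 48 and 8. Here the DNA past the cut holds a stretch of 14 bases in both orientations, shown in capitals for the same-strand copy (chr6:70950028-70950081, where it starts 47 bp past the cut) and for the inverted copy read into by the prey (chr6:70949567-70949606).
chr6 same-strand copy: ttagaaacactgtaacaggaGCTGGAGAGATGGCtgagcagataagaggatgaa
chr6 inverted copy: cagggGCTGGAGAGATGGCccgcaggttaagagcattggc
In 52 of the 95 junctions the inserted bases and the first 12 bases of the prey can be read together from the bait's own strand near the cut, so that the switch to the inverted copy may lie within the shared stretch rather than where the alignment puts it. Leaving out the most repeated position past the cut of each bait changed the ART558 difference in share from -6.06 to -6.05 percentage points.

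Inserts of 10 to 30 bases were looked up in the DNA within 200 bp of the cut on either side, and then within 200 bp of the prey start. Of 1068 such inserts in junctions past the cut, 260 (24.3%) matched the opposite strand near the cut, 99 (9.27%) the bait's own strand near it and 47 (4.401%) only the surroundings of the prey, and 662 matched none of these. Inserts of same-strand junctions at 200 bp to 10 kb gave nearly equal shares, 24.6% and 11.3% of 7735. At the cut, 10 of 162 inserts (6.17%) matched the opposite strand and 17 the bait's own.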

How the data were processed

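Inverted junctions were taken from the junction lists of 60 LAM-HTGTS libraries. The authors demultiplexed and trimmed reads, aligned them to mm10 with Bowtie2 and called junctions with the TranslocWrapper pipeline, whose versions were not given in the sources used here. The deposited values used are of other kinds than counts, namely 1 line per junction with chromosome, position, strand and read coordinates of bait and prey. From these, the inverted junctions were selected, counted per library and divided by all junctions of that library on chromosomes 1 to 19, X and Y. An incomplete last line of 1 ART558 library was left out. Micro-homology is the overlap of bait and prey in the read, and longer than 10 bp was left out of its shares. No molecular identifiers were used, so repeats of a junction may be copies of 1 molecule, and each position was also counted a single time.

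Libraries were permuted within baits in exact, two-sided tests of the mean of the differences per bait, and p-values were adjusted by Benjamini-Hochberg within each measure with a threshold of 0.05. Libraries needed at least 1000 junctions, and at least 20 inverted junctions for distance, micro-homology, insertions and bait ends. Comparisons within libraries used sign-flip permutation with 100000 resamples. The chromosome 6 DMSO libraries of another collection entered only as an alternative. The members, measures and lists were chosen with earlier results of these data known. Positions named were the 3 found in most libraries of each bait, the 3 past the cut found in most, and the one past it with most junctions. The scripts were tested on simulated data. Sequences and cut sites came from RefSeq GRCm38.p6 and genes from GENCODE M21. Python 3.11.15, NumPy 2.4.6, pandas 2.3.3, SciPy 1.17.1 and Matplotlib 3.10.9 were used.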

Additional observations from a re-analysis of the deposited data

Results flagged for a closer look

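In 5 groups of 4 to 10 libraries, 47 sets of values, each of 1 measure in 1 group, were examined for a library far from the others. Of these sets 7 had one, and chance gives about 1 in 20, or 5%, for a single set, but the sets reuse the same libraries and are not independent. Of the 7, 5 were 1 library, replicate 2 of DMSO with the chromosome 14 bait, which had 1139 junctions and 40 inverted ones. Its inverted share was 3.51%, with the others between 5.82% and 5.94%. Its inverted part of both orientations was 4.44% (others 7.57% to 7.96%), and from 200 bp to 10 kb it was 1.36% (others 5.23% to 5.82%). Of its inverted junctions, 85% lay under 200 bp (others 50.2% to 53.9%) and 40% had insertions (others 29.4% to 30.6%).

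Replicate 6 of the other DMSO collection with the chromosome 6 bait had the highest inverted share of its group, 6.88% against 5.16% to 5.90%. In wild-type cells with Aph plus ART558 and the chromosome 14 bait, replicate 1 lacked on average 44.7 bases of the bait end, against 60.7 to 62.6 in the others.

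The difference in inverted share with ART558 differed between deficient cells without and with Aph, by -2.555 percentage points (exact permutation test, p = 0.000938, adjusted p = 0.00563). It largely restates the difference between DMSO and Aph, since the shares with ART558 were alike (0.527% and 0.570%). The inverted part of both orientations gave no call (-1.86, exact permutation test, adjusted p = 0.21), nor did that from 200 bp to 10 kb (-0.0173, exact permutation test, adjusted p = 0.99).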

How the results depend on the processing

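Of 458 values recomputed under 19 other settings, 365 kept their direction and their side of the threshold, 68 lost the call, 6 gained one and 19 changed sign. The ART558 differences in deficient cells, in share and in orientation, kept direction under every setting, and their calls were lost with the replicate block and, under Aph, within sequencing runs. In each of these losses p was the smallest that so few libraries allow. Values are differences, in percentage points unless stated, and the causes of changes were not tested. Wild-type and ART558 values rest on few inverted junctions.

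With each prey position counted a single time, calls were lost for the share in wild-type cells (-0.0514) and between genotypes at chromosome 6 (-0.192), and for the inverted part of both orientations with Aph (-2.25, sign changed), in wild-type cells (-0.960) and between genotypes at chromosome 14 (-5.42). Micro-homology of 5 bp or more in wild-type cells changed sign (1.58). With each pair of prey position and bait end counted a single time, it was 0.462 and the wild-type median distance 9.25 bp, both with changed sign, and the bait end of inverted against same-strand junctions gained a call (-1.27 bases).

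With a limit of 2 kb the inverted part of both orientations lost its call with Aph (0.70) and gained one between genotypes at chromosome 6 (-2.15). From 50 bp on, the share between genotypes at chromosome 6 (-0.137) and the orientation at chromosome 14 (-2.79) lost their calls. Signs changed for the wild-type median distance (14.1 bp), direct joining with ART558 (1.63), 2 to 4 bp in wild-type cells (2.87) and between genotypes (0.697), and 5 bp or more between genotypes (2.22). From 200 bp on, the orientation lost its call in wild-type cells (-12.5) and at chromosome 14 (-2.22), and changed sign at chromosome 6 (3.44).

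Within sequencing runs, Aph plus ART558 against Aph had no call for the share (-2.34), the orientation (-7.14) or any other measure, with 3 libraries against 1. With both chromosome 6 DMSO collections, the orientation with Aph lost its call (0.968, adjusted p 0.0776 by exact permutation) and direct joining with ART558 changed sign (0.522). Signs also changed for the wild-type share under 1000 bp (1.26), for wild-type micro-homology of 2 to 4 bp (2.29) and 5 bp or more (1.21) with insertions in the total, for preys ending within 3 bp of the cut with ART558 (0.95), and for insertions of inverted against same-strand junctions from 1 kb on (-0.117).

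Settings chosen after the data were seen gave the following. From 20 bp on, calls were lost between genotypes for the share at chromosome 6 (-0.174) and the orientation at chromosome 14 (-3.46), and signs changed for direct joining with ART558 (1.74) and, between genotypes, for 2 to 4 bp (0.560) and 5 bp or more (2.45). Under 20 bp the wild-type share lost its call (-0.0500), and without the most repeated position so did the share at chromosome 6 (-0.232).

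Replicate numbers were not treated as pairs in the main tests. Of 16 same-numbered pairs, 7 had deviations from their group means correlated above 0.1 (-0.839 to 0.659). The smallest groups were left out and differently numbered pairs were not examined, so this check cannot settle whether the numbers pair the libraries. With the replicate number as a block, the Aph difference in orientation kept its call (1.37, exact permutation test, adjusted p 0.0469). The exact permutation test in blocks cannot go below p = 0.03125 with 6 pairs, 0.0625 with 5 and 0.25 with 3. The lost calls below were at these limits, except those for Aph against DMSO and in wild-type cells. Other calls of share and orientation were lost: the share differed by -6.05 with ART558, -3.39 with ART558 under Aph, -2.02 with Aph, -0.411 in wild-type cells, and -3.81 and -0.309 between genotypes at chromosomes 14 and 6. The orientation differed by -8.18, -5.89, -4.89 (wild-type cells) and -3.97 (chromosome 14). Calls were also lost for Aph plus ART558 against Aph in the share under 200 bp (47.5), median distance (-641 bp), micro-homology of 2 to 4 bp (-21.8) and 5 bp or more (21.5), insertions (34.1) and bait end (22.3 bases), each with an adjusted p of 0.156. So were those for ART558 against DMSO in the share under 200 bp (39.8), median distance (-486 bp) and insertions (27.6), each at 0.312, and in the bait end (24.4 bases, 0.25), for Aph against DMSO in the share under 200 bp (-8.12, 0.0586), and between genotypes for the bait end at chromosome 14 (18.1 bases, 0.25; all by exact permutation).

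Leaving out 1 library at a time, the share in wild-type cells ran from -0.664 to -0.172, and between genotypes from -3.95 to -3.49 (chromosome 14) and -0.353 to -0.266 (chromosome 6). The orientation at chromosome 14 ran from -4.13 to -3.21. Comparisons of 4 against 3 libraries cannot pass the threshold with 1 left out. With ART558 against DMSO the calls for insertions, share under 200 bp and median distance were lost at each of 9 omissions (adjusted p 0.0556 to 0.0926), and that for the bait end at 5 of 9. With 1 library fewer the smallest p allowed is higher, and none of these differences changed sign. Signs changed for direct joining with ART558 (-4.90 to 4.78) and in wild-type cells (-0.359 to 7.203), for preys ending at the cut with ART558 (-2.42 to 2.25), for 5 bp or more between genotypes (-4.30 to 0.0250), and in wild-type cells for the median distance (-41.4 to 25.2 bp), 2 to 4 bp (-6.91 to 0.956), 5 bp or more (-2.94 to 1.92) and the share under 200 bp (-8.34 to 0.211).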
